A study of Mus musculus with 12 samples.

Results

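Macrophages make superoxide with the phagocyte NADPH oxidase, and superoxide dismutases and catalase remove superoxide and hydrogen peroxide. The 8 genes described here include Cybb, Cyba, Ncf1, Ncf4 and Rac2, which encode parts of that oxidase or its activating GTPase. The others are Sod1, Sod2 and Cat, which encode enzymes that remove superoxide or hydrogen peroxide. The 8 genes were chosen by name, with earlier results of these data known. All 8 were found among the 47937 genes of the count table and had enough reads for a test. Bone marrow cells of C57BL/6 mice were grown into macrophages with CSF-1, and RNA was sequenced from 4 groups with 3 libraries in each. Resting macrophages (M0) were compared with macrophages activated over 18 h by IFNγ at 50 ng/ml together with LPS at 20 ng/ml, called IFNγ + LPS. The other two groups were the same cells, resting or activated, given T863 (50 µM; DGAT1i), an inhibitor of DGAT1, the enzyme of the last step of triacylglycerol synthesis. The title of the M0 samples gives no time, and those of the DGAT1i groups give 18 h. For 2 of the 3 libraries of M0 with DGAT1i, a second label field gives the compound number as T864 or T865 while the source field gives T863, and all were read as T863. The design asks how activation changes these genes, and whether blocking triacylglycerol synthesis changes them in resting or activated cells. All groups share the mouse strain and the culture, and each treatment was tested at 1 dose and 1 time.

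Libraries held between 4996014 and 6621671 reads counted on genes. Levels are given as CPM, the reads of a gene relative to all reads of its library after scaling by the TMM method of edgeR, and 1 CPM was worth 4.28 to 7.58 reads. Replicates correlated with r between 0.988 and 0.992 over 12 pairs. Every library held at least 324 reads of each of the 8 genes, the lowest being Sod2 in M0. The labels do not say whether the libraries of a group came from separate cultures or animals, so that p-values measure only the spread between these samples. The 7 macrophage markers Adgre1, Csf1r, Cd68, Itgam, Mertk, Fcgr1 and Lyz2 had reads in every library and together reached 12944 to 14197 CPM in M0 and 8225 to 8876 CPM after IFNγ + LPS. Lyz2 carried that fall (9641 to 2956 CPM), and Csf1r, Cd68 and Itgam fell too, while Adgre1 (1316 to 2706 CPM), Mertk (71.4 to 459 CPM) and Fcgr1 (91.1 to 857 CPM) rose. In the groups with DGAT1i they summed to 15951 to 17985 and 7818 to 8775 CPM. Nos2, the inducible nitric oxide synthase, was at 0 reads in every library without IFNγ + LPS and at 23092 to 28577 reads in the libraries with it. Markers of erythroid cells had 0 reads, and those of B cells, T and NK cells, mast cells and stromal cells reached at most 2.32 CPM in sum in any library. Markers of monocytes and progenitors summed to 32.0 to 33.6 CPM in M0, 14.3 to 20.2 after IFNγ + LPS, 10.4 to 15.6 in M0 with DGAT1i and 14.4 to 18.9 in activated cells with it. Dendritic cell markers went from 0.133 to 0.696 CPM in M0 to 14.4 to 19.4 after IFNγ + LPS.

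The phagocyte NADPH oxidase moves electrons from NADPH across a membrane to oxygen. Its catalytic core, flavocytochrome b558, is a pair of membrane proteins, gp91phox (encoded by Cybb) and p22phox (Cyba). The core is silent until cytosolic proteins reach it, among them the organiser p47phox (Ncf1), the lipid-binding p40phox (Ncf4) and the GTPase Rac, of which Rac2 is the form of blood cells. Loss of a phox protein causes chronic granulomatous disease, in which phagocytes fail to kill certain microbes. Superoxide is turned into hydrogen peroxide by Sod1, a copper and zinc enzyme of the cytosol, and by Sod2, a manganese enzyme of the mitochondrial matrix. Catalase (Cat), a haem enzyme of peroxisomes, splits hydrogen peroxide into water and oxygen.

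The start regions of 4 of these genes are shown. Of the 6 with a RefSeq promoter, Cybb, Ncf1 and Sod2 responded most to IFNγ + LPS and Cat to DGAT1i. Each region is the 250 bases before the RefSeq start on GRCm38.p6, 5′ to 3′ on the strand of the gene, with capitals at the motif matches named below. The start given by RefSeq for Cybb lies within the gene as GENCODE M21 draws it, which begins further upstream, and the same holds for Sod2 and, by a few bases, for Cat.
Cybb, chrX:9469325-9469574, minus strand: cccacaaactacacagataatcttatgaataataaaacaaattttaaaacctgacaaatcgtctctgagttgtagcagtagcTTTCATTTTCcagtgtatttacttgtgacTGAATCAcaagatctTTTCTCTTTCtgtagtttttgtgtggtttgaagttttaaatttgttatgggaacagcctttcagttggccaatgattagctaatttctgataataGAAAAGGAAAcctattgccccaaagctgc
Ncf1, chr5:134229626-134229875, minus strand: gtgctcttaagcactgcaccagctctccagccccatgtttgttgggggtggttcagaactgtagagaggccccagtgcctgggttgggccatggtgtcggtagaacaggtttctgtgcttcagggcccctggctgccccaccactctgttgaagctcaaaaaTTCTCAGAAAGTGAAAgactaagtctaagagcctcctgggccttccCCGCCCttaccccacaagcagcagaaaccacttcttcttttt
Sod2, chr17:13007589-13007838, plus strand: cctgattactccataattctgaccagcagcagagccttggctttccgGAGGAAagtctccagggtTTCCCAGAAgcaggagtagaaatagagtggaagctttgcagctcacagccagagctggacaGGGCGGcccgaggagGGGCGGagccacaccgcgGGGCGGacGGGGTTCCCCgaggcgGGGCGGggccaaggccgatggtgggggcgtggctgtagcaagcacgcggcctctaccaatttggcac
Cat, chr2:103485154-103485403, minus strand: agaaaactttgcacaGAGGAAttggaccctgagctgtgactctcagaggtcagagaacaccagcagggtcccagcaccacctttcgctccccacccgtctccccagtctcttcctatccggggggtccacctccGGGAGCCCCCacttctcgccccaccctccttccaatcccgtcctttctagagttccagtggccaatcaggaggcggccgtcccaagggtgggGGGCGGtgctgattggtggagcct

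Motifs were searched by their letters on both strands. The core of the interferon-stimulated response element (GAAA, 2 bases of any kind, then GAAA), which is bound by IRF proteins, was found 3 times before Cybb, ending 159, 115 and 20 bases before the start, and once before Ncf1. It occurs in 3.04% of 27025 promoters of the same length. The gamma-activated site motif (GAS, TTCNNNGAA), held by 7.18% of promoters, was found before Ncf1 and before Sod2. In Ncf1 it spans bases 88 to 80 before the start and runs into the interferon-response core at bases 82 to 73. The NF-kB motif, held by 7.01% of promoters, was found before Sod2 (bases 83 to 74) and before Cat (bases 116 to 107). The AP-1 motif TGANTCA (6.87% of promoters) was found before Cybb, the PU.1 motif GAGGAA (23.1%) before Sod2 and Cat, and the GC box GGGCGG (32.9%) before Cyba, Ncf1, Sod1, Sod2 and Cat, with 4 copies each before Sod1 and Sod2. The antioxidant response element TGACNNNGC (10.1%) was found before Sod1 but not in the 4 regions shown. Of the motifs searched, the region before Cyba held the GC box alone, and that before Sod1 the GC box and the antioxidant response element. These are matches of letters, not measured binding sites.

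After IFNγ + LPS, 7 of the 8 genes rose and Sod1 fell. Sod2 rose most, 18.9-fold, followed by Cybb (4.84-fold), Rac2 (3.44-fold), Ncf4 (3.24-fold), Ncf1 (2.84-fold), Cyba (2.08-fold) and Cat (1.29-fold). No M0 library overlapped an IFNγ + LPS library for any of the 8 genes. Changes of this kind were common, since 73.3% of the 11760 genes tested were changed (37.1% higher, 36.2% lower) at an adjusted p under 0.05. The test was the quasi-likelihood test of edgeR, with p-values adjusted by Benjamini and Hochberg's method over all genes. Libraries of the 2 groups did not overlap for 75.4% of the genes tested (38.2% higher, 37.1% lower). The median log2 fold change of the 8 genes was 1.60, against 0.0064 over all genes tested.

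With DGAT1i in cells given IFNγ + LPS, Ncf1, Ncf4 and Rac2 fell and Sod1 and Cat rose, while Cybb, Cyba and Sod2 did not pass the test. The share of all genes called in this comparison was 29.8% (13.5% higher, 16.3% lower), and 39.7% did not overlap between the groups (18.1% higher, 21.6% lower). The median of the 8 genes was -0.069, against -0.012 over all genes. In M0, DGAT1i raised Cat and lowered Rac2 slightly, and the other 6 genes did not pass the test. In that comparison 24.4% of all genes were called (11.0% higher, 13.4% lower) and 37.8% did not overlap (17.9% higher, 19.9% lower). The 2 comparisons with M0 share the M0 libraries, and the 2 comparisons with IFNγ + LPS share the IFNγ + LPS libraries.

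**Figure D1:**
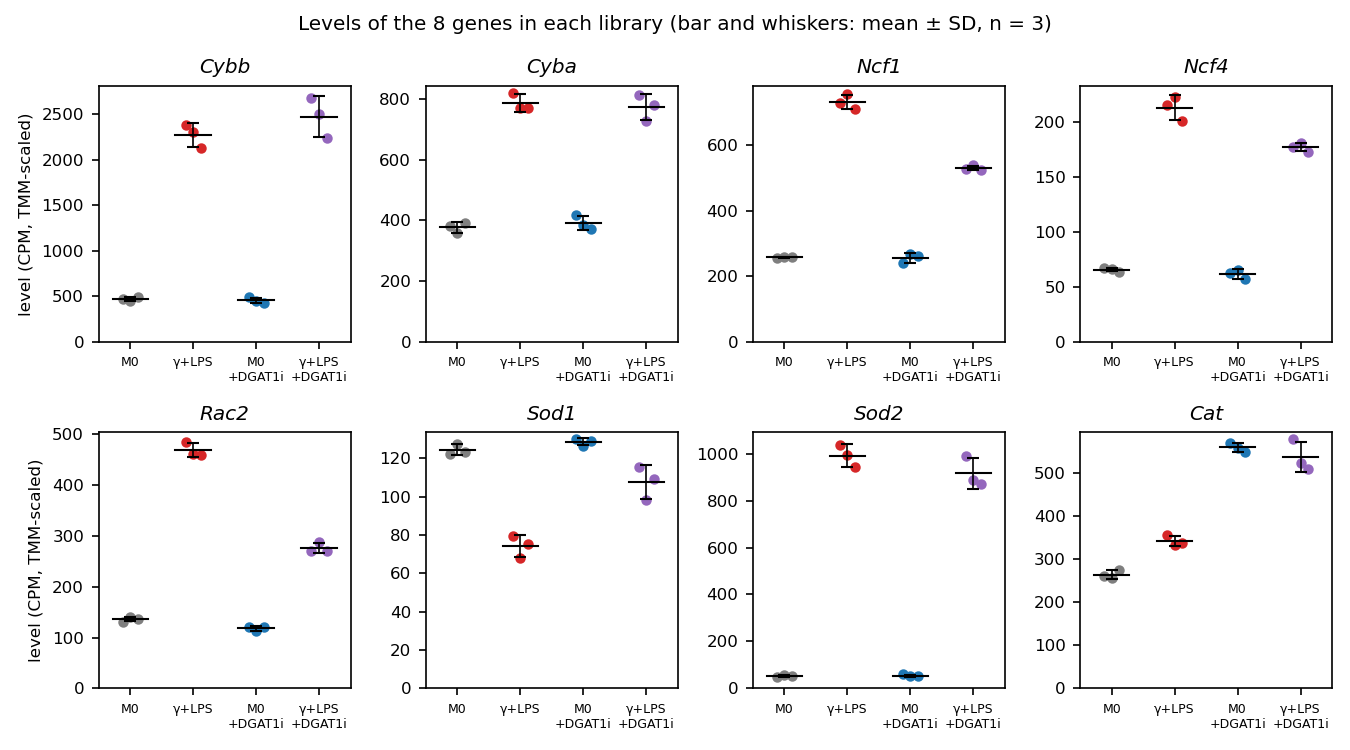
Level of each of the 8 genes (y axis, CPM after TMM scaling, each panel with its own scale from 0) in the 12 libraries of the 4 groups (x axis). Points are libraries, the long bar is the mean and the whiskers are ± 1 SD (n = 3). Cybb, Cyba and Sod2 reach similar heights in the groups with IFNγ + LPS, Ncf1 and Rac2 are lower in the one with DGAT1i (530.0 against 732 CPM and 276 against 469 CPM), and Cat is high in both groups with DGAT1i (559 and 537 CPM).

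Cybb (ENSMUSG00000015340.10, X chromosome from 9435252 to 9487771 on GRCm38, minus strand) was read at 468, 448 and 493 CPM in the M0 libraries and at 2385, 2302 and 2132 CPM after IFNγ + LPS. Libraries of M0 with DGAT1i held 489, 448 and 429.9 CPM, and those of IFNγ + LPS with DGAT1i 2681, 2501 and 2237 CPM. The activated libraries all lay above the resting ones, and the ranges with and without DGAT1i overlapped in both states. Means were 470 ± 22.9, 2273 ± 129, 456 ± 30.4 and 2473 ± 223 CPM (SD, n = 3). By rank, Cybb was the 172nd most counted of the genes tested in M0 and the 57th after IFNγ + LPS. Activation gave a log2 fold change of 2.27 (its SE 0.06, adjusted p = 2.30e-33, edgeR), and 6.39% of the genes tested had a larger increase. With the inhibitor in activated cells the value was 0.12 (95% interval 0.0048 to 0.24, adjusted p = 0.111, edgeR), short of the threshold. Without replicate 3 of IFNγ + LPS with DGAT1i, the lowest of its group, this value passed (adjusted p = 0.0183, edgeR). In M0, DGAT1i gave -0.043 (95% interval -0.16 to 0.077, adjusted p = 0.667, edgeR).

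Cyba (ENSMUSG00000006519.10, chromosome 8 from 122424776 to 122432930, minus strand) stood at 383, 358 and 391 CPM in M0 and at 819, 769 and 770 CPM after IFNγ + LPS. With DGAT1i the libraries stood at 418, 385 and 372 CPM in M0 and at 814, 728 and 779 CPM after IFNγ + LPS. Resting and activated libraries of this membrane partner of Cybb were separate, and those with DGAT1i overlapped those without it in both states. Means were 377 ± 17.5 and 786 ± 28.7 CPM without DGAT1i and 392 ± 23.6 and 773 ± 43.3 CPM with it (SD, n = 3). Cyba rose by a log2 fold change of 1.06 (SE 0.05, adjusted p = 3.52e-25, edgeR). DGAT1i gave -0.024 in IFNγ + LPS (95% interval -0.13 to 0.082, adjusted p = 0.785) and 0.055 in M0 (95% interval -0.053 to 0.16, adjusted p = 0.511, both edgeR).

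Ncf1 (ENSMUSG00000015950.13, chromosome 5 from 134220053 to 134229625, minus strand) was read at 257, 258 and 258 CPM in M0 and at 728, 755 and 712 CPM after IFNγ + LPS. The libraries of M0 with DGAT1i lay on both sides of M0, at 239, 269 and 261 CPM. Those of IFNγ + LPS with DGAT1i lay between the resting and the activated levels, at 528, 538 and 524 CPM, and overlapped neither. The means were 258 ± 0.884, 732 ± 21.7, 256 ± 15.6 and 530.0 ± 7.10 CPM (SD, n = 3), in the order resting, activated, resting with the inhibitor and activated with the inhibitor. The mRNA of the organiser p47phox rose by a log2 fold change of 1.51 with IFNγ + LPS (SE 0.05, adjusted p = 4.51e-33, edgeR). DGAT1i lowered it in IFNγ + LPS by 0.46 on the log2 scale, to 0.725 of its level (adjusted p = 7.93e-11, edgeR). In M0 the value was -0.0069 (95% interval -0.11 to 0.098, adjusted p = 0.948, edgeR). Exons of Ncf1 share 408 bases with Gtf2ird2 on the opposite strand, which held 22 to 82 reads in a library, against 1766 to 4192 for Ncf1.

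Ncf4 (ENSMUSG00000071715.11, chromosome 15 from 78244801 to 78262580, plus strand) was the least counted oxidase gene of the 5. It was read at 66.8, 66.3 and 63.8 CPM in M0 and at 215, 223 and 200.3 CPM after IFNγ + LPS. With DGAT1i it stood at 62.3, 65.6 and 56.6 CPM in M0 and at 177, 180.2 and 173 CPM after IFNγ + LPS. Every activated library with DGAT1i lay below every activated library without it, whereas the M0 libraries overlapped. Means were 65.6 ± 1.64, 213 ± 11.3, 61.5 ± 4.54 and 177 ± 3.73 CPM (SD, n = 3) in the order used for Ncf1. The log2 fold change of p40phox mRNA was 1.70 with IFNγ + LPS (SE 0.06, adjusted p = 7.25e-32, edgeR). DGAT1i lowered it in IFNγ + LPS by 0.27 on the log2 scale (SE 0.06, adjusted p = 0.000255, edgeR), and in M0 gave -0.095 (95% interval -0.23 to 0.041, adjusted p = 0.340, edgeR).

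Rac2 (ENSMUSG00000033220.6, chromosome 15 from 78559167 to 78572783, minus strand) had the largest drop with DGAT1i among the 8 genes. It was read at 131, 140.0 and 137 CPM in M0 and at 485, 462 and 460 CPM after IFNγ + LPS. With DGAT1i the M0 libraries stood at 121, 112 and 121 CPM and the IFNγ + LPS libraries at 270, 288 and 270 CPM. All 4 groups were separate, with the activated cells given DGAT1i between the resting and the activated levels. Means were 136 ± 4.51, 469 ± 14.0, 118 ± 5.03 and 276 ± 10.5 CPM (SD, n = 3). IFNγ + LPS raised this GTPase by a log2 fold change of 1.78 (SE 0.05, adjusted p = 9.04e-36, edgeR). In IFNγ + LPS, DGAT1i lowered it to 0.589 of its level, a log2 fold change of -0.76 (SE 0.05, adjusted p = 1.10e-17, edgeR), and 95.9% of the genes tested had a higher value. In M0 the log2 fold change was -0.20 (SE 0.06, adjusted p = 0.00491, edgeR). The call in M0 was lost without replicate 2 of M0 with DGAT1i, the lowest of its group (adjusted p = 0.0585, edgeR).

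Rac1, the close relative of Rac2 that most tissues express, fell slightly with IFNγ + LPS. It averaged 347 CPM in M0, 313 after IFNγ + LPS, and with DGAT1i 295 in resting and 300.1 in activated cells. It fell by 0.15 on the log2 scale with IFNγ + LPS (adjusted p = 0.00839) and by 0.23 with DGAT1i in M0 (adjusted p = 0.000306), and DGAT1i in IFNγ + LPS gave -0.061 (adjusted p = 0.422, all edgeR). Of the Rac1 transcript, 55.5% is matched on the opposite strand by Daglb, which held 8937 reads over all libraries, and the strand setting of the counting is not given in the sources used here.

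Sod2 (ENSMUSG00000006818.4, chromosome 17 from 13006846 to 13040063, plus strand) was read at 47.1, 58.9 and 51.0 CPM in M0 and at 1038, 996 and 942 CPM after IFNγ + LPS. With DGAT1i it was read at 59.0, 51.5 and 52.0 CPM in M0 and at 992, 886 and 872 CPM after IFNγ + LPS. Resting and activated libraries were far apart, and those with DGAT1i overlapped those without it in both states. The means were 52.3 ± 6.01, 992 ± 48.5, 54.2 ± 4.17 and 917 ± 65.5 CPM (SD, n = 3). The mitochondrial dismutase moved from place 3345 to place 142 among the genes tested when ordered by CPM. With IFNγ + LPS it rose by 4.24 on the log2 scale (SE 0.07, adjusted p = 1.34e-41, edgeR), and 2.52% of the genes tested had a larger increase. With the inhibitor in activated cells it was -0.11 (95% interval -0.23 to 0.0017, adjusted p = 0.134, edgeR). That value passed the threshold without replicate 1 of IFNγ + LPS with DGAT1i, the highest of its group, and without the filter on low counts, the lowest adjusted p among these alternatives being 0.0194 (edgeR). In M0 it was 0.049 (95% interval -0.11 to 0.21, adjusted p = 0.713, edgeR).

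Sod1 (ENSMUSG00000022982.9, chromosome 16 from 90220754 to 90226329, plus strand) was the gene of the 8 that fell with IFNγ + LPS. It was read at 122, 128 and 123 CPM in M0 and at 79.2, 67.9 and 75.5 CPM after IFNγ + LPS. With DGAT1i the libraries held 130.0, 126 and 129 CPM in M0 and 115, 98.3 and 109 CPM after IFNγ + LPS. The activated libraries with DGAT1i lay above every activated library without it and below every M0 library. Means were 124 ± 2.89, 74.2 ± 5.76, 128 ± 1.80 and 108 ± 8.72 CPM (SD, n = 3). The cytosolic dismutase fell by 0.75 on the log2 scale with IFNγ + LPS (SE 0.07, adjusted p = 4.66e-15, edgeR), to 0.595 of its M0 level. DGAT1i raised it in IFNγ + LPS by a log2 fold change of 0.54, or 1.45-fold (SE 0.07, adjusted p = 1.12e-08, edgeR). In M0 the value was 0.047 (95% interval -0.073 to 0.17, adjusted p = 0.636, edgeR). The pseudogene Gm8566 matches 72.5% of the main Sod1 transcript at up to 97.8% identity and held 23 reads over all libraries, so that reads of Sod1 counted on it, or the reverse, are possible. Sod3, the dismutase secreted to the extracellular space, had 0 reads in all 12 libraries, which allows up to 0.396 to 0.700 CPM in a library by counting error only.

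Cat (ENSMUSG00000027187.10, chromosome 2 from 103453849 to 103485160, minus strand) was the gene of the 8 most changed by DGAT1i in M0. It was read at 261, 255 and 275 CPM in M0 and at 570.4, 559 and 549 CPM in M0 with DGAT1i. After IFNγ + LPS it stood at 356, 332 and 338 CPM, and with DGAT1i at 578, 524 and 510.4 CPM. The groups with DGAT1i overlapped each other and lay above every library without the inhibitor, and activated cells lay above resting ones where no inhibitor was given. Means were 264 ± 10.3, 342 ± 12.2, 559 ± 10.7 and 537 ± 35.8 CPM (SD, n = 3) in the order of the libraries of Ncf1. DGAT1i in M0 raised catalase mRNA 2.12-fold, a log2 fold change of 1.08 (SE 0.05, adjusted p = 1.34e-23, edgeR), and 0.646% of the genes tested had a larger increase. In IFNγ + LPS the rise was 1.57-fold, a log2 fold change of 0.65 (SE 0.05, adjusted p = 6.44e-15, edgeR). IFNγ + LPS alone raised it by 0.37 (SE 0.05, adjusted p = 1.68e-08, edgeR). That last direction turned when libraries were scaled by their totals only, to -0.097 (adjusted p = 0.0932, edgeR), where the median of all genes moved to -0.46. The value of Cat lay above that median.

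Activation was also compared within the cells given DGAT1i. There, 6 of the 8 genes rose, Sod1 fell and Cat did not pass the test, in a comparison where 70.6% of all genes were called (35.3% higher, 35.3% lower). Groups did not overlap for 7 of the 8, against 72.5% of all genes (36.1% higher, 36.5% lower). Log2 fold changes were 4.08 for Sod2, 2.44 for Cybb, 1.52 for Ncf4, 1.22 for Rac2, 1.05 for Ncf1 and 0.98 for Cyba (SE 0.05 to 0.07, largest adjusted p = 1.49e-23, edgeR). Sod1 fell by 0.25 on the log2 scale (adjusted p = 0.000391, edgeR), and Cat gave -0.057 (95% interval -0.16 to 0.047, adjusted p = 0.326, edgeR). Scaled by library totals only, Cat gave -0.48 and was called lower, with the median of all genes at -0.43.

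**Figure D2:**
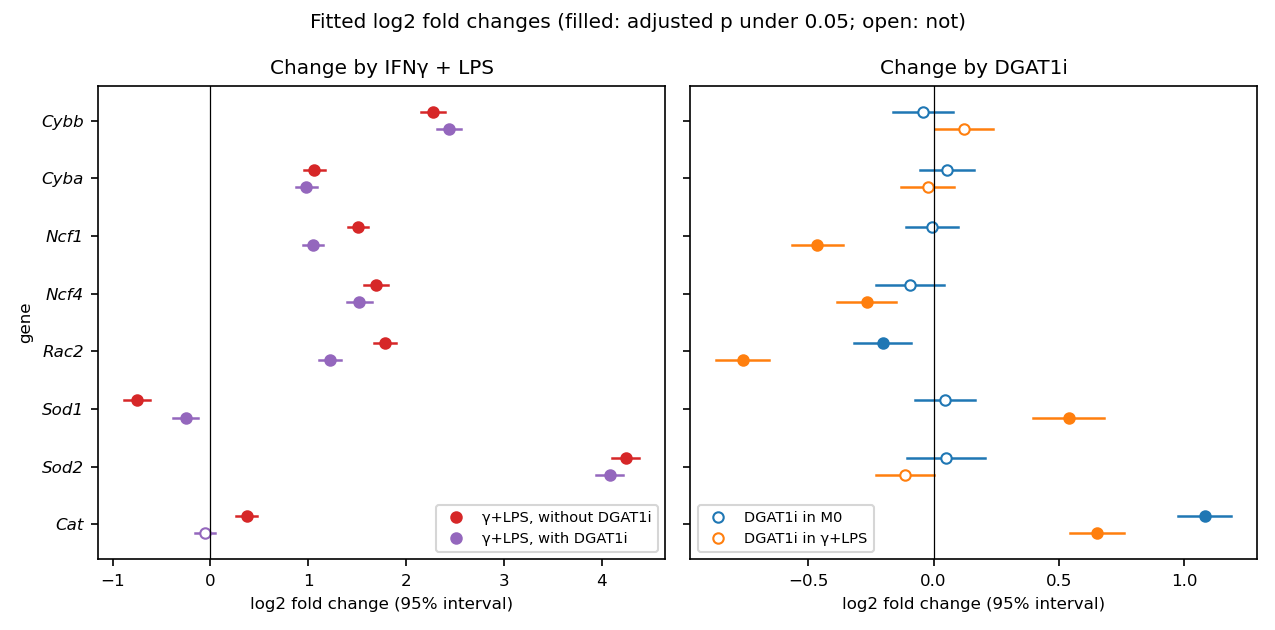
Fitted log2 fold changes (x axis) of the 8 genes (y axis) with IFNγ + LPS in cells without and with DGAT1i (left) and with DGAT1i in resting and in activated cells (right). Points are edgeR estimates, lines are 95% intervals, and filled points are past an adjusted p of 0.05. Ncf1 and Rac2 lie further left and Sod1 further right in activated than in resting cells with DGAT1i, and Cat has its largest value in M0 (1.08 against 0.65).

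The difference between the response to DGAT1i in IFNγ + LPS and that in M0 was tested directly, which is the same test as the difference between activation with and without DGAT1i. Of the 8 genes, 4 passed, against 18.5% of all genes tested (8.66% higher, 9.80% lower). Rac2 responded more negatively in activated cells by 0.56 on the log2 scale (SE 0.08, adjusted p = 1.46e-07, edgeR), and Ncf1 had a difference of -0.46 (SE 0.07, adjusted p = 3.02e-06, edgeR). Sod1 had a difference of 0.49 (SE 0.09, adjusted p = 5.64e-05, edgeR) and Cat of -0.43 (SE 0.07, adjusted p = 1.57e-05, edgeR). The differences of Cybb (0.16, adjusted p = 0.173), Cyba (-0.079, adjusted p = 0.524), Ncf4 (-0.17, adjusted p = 0.183) and Sod2 (-0.16, adjusted p = 0.260) were short of the threshold in edgeR. For Ncf4 the 95% interval of the difference ran from -0.35 to 0.0068, so that its drop with DGAT1i in activated cells was not shown to differ from that in M0.

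Markers of activation and of other cells moved with DGAT1i in activated cells, where 29.8% of all genes tested were called (13.5% higher, 16.3% lower). Of 8 genes typical of IFNγ and LPS activation, 5 fell (Cxcl9, Cxcl10, Tnf, Il6 and Il1b, by 0.51 to 1.68 on the log2 scale), Nos2 rose by 0.23, and 2 did not pass the test. Their sum went from 15155 to 16331 CPM without the inhibitor to 14136 to 14850 CPM with it. Dendritic cell markers fell from 14.4 to 19.4 CPM in sum to 6.38 to 9.11 CPM, with 2 of the 3 tested called lower. Markers of neutrophils, which also use this oxidase, moved the other way. The 12 markers summed to 17.1 to 27.9 CPM after IFNγ + LPS and to 64.7 to 82.9 CPM in IFNγ + LPS with DGAT1i, against 37.7 to 46.1 CPM in M0 and 29.4 to 37.6 CPM in M0 with DGAT1i. Of the 5 that could be tested, S100a8, S100a9, Ngp and Ltf rose (log2 fold changes of 1.92, 1.70, 2.68 and 2.12) and Mmp8 did not pass the test. The defining neutrophil genes Ly6g and Retnlg had 0 reads in every library, and Elane had 0 reads in both groups with IFNγ + LPS. The part of all these markers in the results for Ncf1, Ncf4, Rac2, Sod1 and Cat was not tested. In whole populations, fewer cells of a type and less RNA per cell cannot be told apart.

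Levels were compared between genes per kilobase of sequence (CPM divided by the length in kilobases, RPKM). With all exons of a gene as its length, Cyba was highest in M0 at 363 ± 16.8, followed by Cat at 101 ± 3.93, Cybb at 80.9 ± 3.94, Ncf1 at 70.3 ± 0.241, Rac2 at 43.9 ± 1.45, Ncf4 at 32.5 ± 0.812, Sod1 at 31.3 ± 0.729 and Sod2 at 5.23 ± 0.600 RPKM (SD, n = 3). The values of Ncf4 and Sod1 did not differ beyond their spread. After IFNγ + LPS the order was Cyba (757 ± 27.6), Cybb (391 ± 22.2), Ncf1 (199.7 ± 5.92), Rac2 (151 ± 4.52), Cat (131 ± 4.68), Ncf4 (105 ± 5.60), Sod2 (99.1 ± 4.85) and Sod1 (18.7 ± 1.45). Ncf4 and Sod2 were within their spread of each other. The order depends on the lengths used, most of all for Sod1, since its 3970 exon bases include a retained intron and its main transcript has 641. With the main transcript, an alternative chosen after seeing the data, Sod1 stood at 194 ± 4.51 RPKM in M0, second to Cyba at 507 ± 23.5. In activated cells those lengths put Sod2 at 169 ± 8.27 RPKM, after Cyba, Cybb and Ncf1 and above Rac2 (154 ± 4.62), Ncf4 (145 ± 7.73), Cat (131 ± 4.68) and Sod1 (116 ± 8.99).

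Ratios within a library do not depend on the scaling between libraries and are given as a description. The main transcript is used first here, although that length was an alternative chosen after seeing the data. Per base of the main transcript, Cybb stood at 0.195 ± 0.00300 of Cyba in M0, 0.453 ± 0.0179 after IFNγ + LPS, and with DGAT1i at 0.182 ± 0.00125 in resting and 0.501 ± 0.0460 in activated cells (SD, n = 3). With all exons as the length, the log2 ratio of Cybb over Cyba averaged -2.17 in M0 and -0.95 after IFNγ + LPS. With DGAT1i those means were -2.26 in resting and -0.81 in activated cells. Both membrane subunits thus rose, Cybb by more. Sod2 over Sod1 went from 0.0459 ± 0.00419 in M0 to 1.47 ± 0.124 after IFNγ + LPS, and from 0.0461 ± 0.00304 to 0.933 ± 0.0574 in cells with DGAT1i. The activated libraries with DGAT1i, at log2 ratios of -0.090, -0.019 and -0.20, all lay below those without it, at 0.52, 0.68 and 0.45. With all exons as the length these log2 ratios averaged 1.76 and 2.41, so that whether Sod2 exceeds Sod1 with DGAT1i depends on the length used, and the difference between the groups does not. Rac2 over Rac1 went from 0.537 ± 0.0183 in M0 to 2.05 ± 0.0607 after IFNγ + LPS, and from 0.548 ± 0.00942 to 1.26 ± 0.0758 with DGAT1i. Rac2 was thus below Rac1 in every resting library and above it in every activated one, and this order was the same with all exons as the length.

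**Figure D3:**
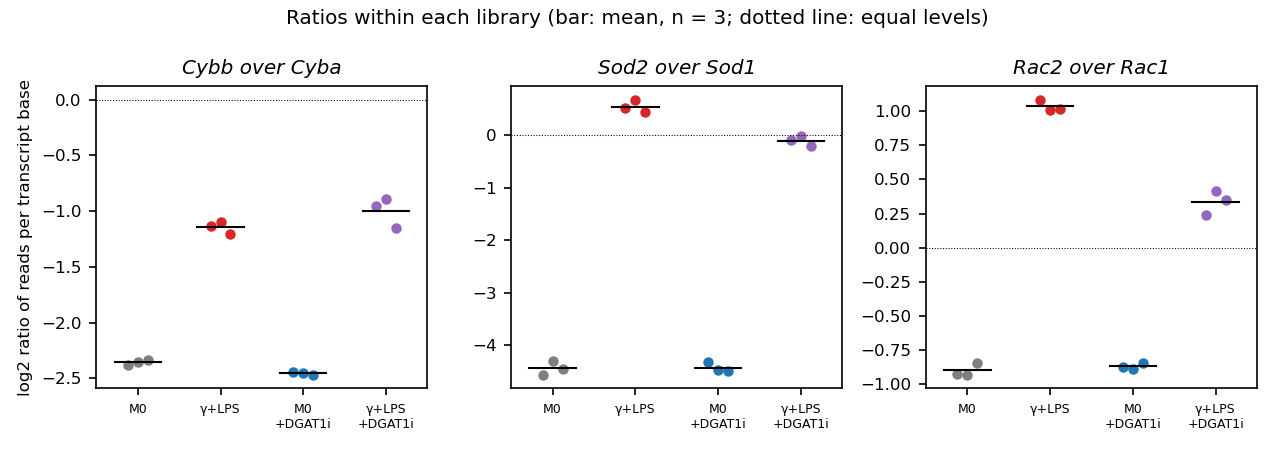
Log2 ratio of reads per base of the main transcript (y axis, each panel with its own scale) for Cybb over Cyba, Sod2 over Sod1 and Rac2 over Rac1 in the 12 libraries of the 4 groups (x axis). Points are libraries, bars are means (n = 3) and the dotted line marks equal levels. The main transcript is an alternative length chosen after seeing the data. Sod2 over Sod1 and Rac2 over Rac1 are lower in the activated cells with DGAT1i (means of -0.10 and 0.33) than in those without it (0.55 and 1.04).

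Other genes of the oxidase and its surroundings were described from lists set by function. Noxo1, an organiser of NOX1, averaged 1.59 to 2.36 CPM in the groups and passed in no comparison. The catalytic subunits Nox1, Nox3 and Nox4 had 27, 5 and 1 reads over all libraries, and Duox1 and Duox2 had 0. Of 5 genes of cytochrome b558 biogenesis and turnover, IFNγ + LPS raised 3 and lowered 2. Among all genes tested, 73.3% were called in that comparison (37.1% higher, 36.2% lower). Cybc1, a chaperone needed for gp91phox and p22phox, rose by a log2 fold change of 1.16 and the chaperones Hsp90aa1 and Hsp90ab1 by 0.75 and 0.98. Nrros, a negative regulator that promotes the loss of gp91phox, fell by 1.27 on the log2 scale, and the ubiquitin ligase Stub1 fell by 0.47. In activated cells the inhibitor raised Hsp90aa1 (0.48) and Hsp90ab1 (0.21), and gave 0.031 for Cybc1 and -0.069 for Nrros, short of the threshold. In M0, DGAT1i lowered Hsp90aa1 by 0.30 on the log2 scale, and the other 4 did not pass, against 24.4% of all genes called.

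Of 18 tested genes for Rac GTPases, their exchange factors and their inhibitors, 8 rose, 9 fell and 1 did not pass with IFNγ + LPS. Their median was -0.0075, against 0.0064 over all genes, of which 73.3% were called (37.1% higher, 36.2% lower). The largest increases were those of the exchange factor Prex1 (1.61), the GTPase inhibitor Arhgdib (1.52) and the exchange factor Vav1 (1.13), and the largest decreases those of Arhgef6 (-2.25), Rac3 (-1.80) and Vav3 (-1.47). DGAT1i in IFNγ + LPS raised 1 (Vav3, 0.47) and lowered 6, led by Dock2 (-0.51), Vav2 (-0.45) and Vav1 (-0.29). Dock2, the Rac exchange factor of leukocytes, was read at 466, 491 and 447 CPM after IFNγ + LPS and at 332, 343 and 314 CPM with DGAT1i. In M0, DGAT1i raised none and lowered 7, led by Arhgef7 (-0.47), Dock2 (-0.40) and Arhgef6 (-0.29). The share of all genes called lower by DGAT1i was 16.3% in IFNγ + LPS and 13.4% in M0.

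Of 14 tested kinases and signalling enzymes upstream of the cytosolic subunits, 4 rose and 6 fell with IFNγ + LPS. Among all genes tested, 73.3% were called in that comparison (37.1% higher, 36.2% lower). Prkce (1.86), Syk (1.36) and Prkcd (0.95), a protein kinase C known to phosphorylate p47phox and p40phox, rose most, and Prkcb (-1.32), Pak1 (-0.89) and Mapk3 (-0.79) fell most. DGAT1i in IFNγ + LPS raised 2 and lowered 4, against 29.8% of all genes called (13.5% higher, 16.3% lower). Mapk3 rose (0.56) and Plcg2, a phospholipase that releases the activator of protein kinase C, fell by 0.64 on the log2 scale, from 148 to 94.9 CPM. Irak4 (-0.31) and Pak2 (-0.19) also fell and Mapk14 rose (0.21), all 3 short of the threshold with DESeq2 on the 6 libraries compared. In M0, DGAT1i raised 3 (Mapk3, 0.26, Syk, 0.23, and Prkcd, 0.16) and lowered Pak1 (-0.42). Among all genes tested, 24.4% were called there (11.0% higher, 13.4% lower). The calls of Mapk3 and Prkcd in M0 were lost under some alternatives.

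Of 8 genes for charge compensation and phagosome partners, 2 rose and 5 fell with IFNγ + LPS. Among all genes tested, 73.3% were called in that comparison (37.1% higher, 36.2% lower). The proton channel Hvcn1, which carries protons out as the oxidase moves electrons, was read at 57.5, 54.7 and 64.9 CPM in M0 and 43.0, 39.8 and 37.7 CPM after IFNγ + LPS. It stood at 73.7, 74.7 and 68.1 CPM in M0 with DGAT1i and at 77.6, 62.8 and 60.9 CPM in IFNγ + LPS with DGAT1i. Hvcn1 fell by 0.56 on the log2 scale with IFNγ + LPS (adjusted p = 1.39e-07, edgeR) and rose with DGAT1i by 0.75 in IFNγ + LPS (adjusted p = 2.45e-09, edgeR) and by 0.29 in M0 (adjusted p = 0.00302, edgeR). The chloride transporters Clcn5 and Clcn3 fell by 1.48 and 0.58 on the log2 scale with IFNγ + LPS, and DGAT1i in IFNγ + LPS raised them by 0.33 (a call lost with DESeq2 on the 6 libraries compared) and 0.54. The autophagy gene Uvrag rose with IFNγ + LPS (0.57) and fell with DGAT1i there (-0.29). Clic1 fell with DGAT1i in IFNγ + LPS (-0.23) and in M0 (-0.21). The call of Uvrag in activation was lost with scaling by library totals only. Becn1, the other gene called higher (0.16), overlapped between the groups, lost its call with RLE size factors, DESeq2 or no filter, and turned in direction with library totals only.

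Among the partners of the dismutases, 2 rose and 2 fell with IFNγ + LPS, against 73.3% of all genes called (37.1% higher, 36.2% lower). Slc31a1, the copper importer, rose by 2.58, from 56.3 to 338 CPM. Ccs, the chaperone that loads copper into Sod1, fell by 0.50 on the log2 scale, and Slc25a39, a mitochondrial transporter, by 0.32. The copper chaperone Atox1 rose by 0.29, a direction that turned to -0.18 with scaling by library totals only. With DGAT1i in IFNγ + LPS, Ccs gave 0.14 and Slc31a1 0.019, neither past the threshold, and Atox1 rose by 0.22, a call lost with DESeq2. In M0, Slc31a1 rose (0.23) and Atox1 fell (-0.24), and both calls were lost under some alternatives.

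Of 9 tested genes for the removal of hydrogen peroxide by other routes, 4 rose and 4 fell with IFNγ + LPS. Among all genes tested, 73.3% were called in that comparison (37.1% higher, 36.2% lower). The peroxiredoxins Prdx5 (3.45) and Prdx1 (3.17) rose most, followed by Prdx6 (1.05). Prdx1 was read at 1237, 1244 and 1303 CPM in M0, 11515, 11157 and 11326 CPM after IFNγ + LPS, 2521, 2486 and 2272 CPM in M0 with DGAT1i, and 15675, 14371 and 13953 CPM in IFNγ + LPS with DGAT1i. All 4 groups of Prdx1 were separate. Like Cat, Prdx1 rose with DGAT1i in M0 (0.94, adjusted p = 8.76e-21) and by less in IFNγ + LPS (0.37, adjusted p = 1.01e-07, both edgeR), and the difference of -0.57 passed the test (adjusted p = 4.56e-08, edgeR). Gpx1, the cytosolic glutathione peroxidase, went the other way. It was read at 312, 295 and 276 CPM in M0, 205, 208 and 199 CPM after IFNγ + LPS, 174, 175 and 179.6 CPM in M0 with DGAT1i, and 167, 149.99 and 157 CPM in IFNγ + LPS with DGAT1i. Gpx1 fell by 0.53 on the log2 scale with IFNγ + LPS, by 0.74 with DGAT1i in M0 (adjusted p = 5.67e-17, edgeR) and by 0.37 with DGAT1i in IFNγ + LPS (adjusted p = 1.21e-06, edgeR). DGAT1i in M0 raised 3 of the 9 and lowered 3, against 24.4% of all genes called (11.0% higher, 13.4% lower). In IFNγ + LPS it raised 3 and lowered 1, against 29.8% of all genes called (13.5% higher, 16.3% lower). The call of Prdx5 in M0 was lost under some alternatives, as were those of Prdx6 and Gpx4, both called higher, in IFNγ + LPS.

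Catalase is imported into peroxisomes, and 17 genes of peroxisome assembly were tested beside it. IFNγ + LPS raised 6, led by Pxmp2 (2.23), Pex11a (1.44) and Pex16 (1.40), and lowered Pex7 (-1.10) and Pex2 (-0.31, lost with DESeq2 on the 6 libraries compared). Among all genes tested, 73.3% were called in that comparison (37.1% higher, 36.2% lower). DGAT1i in IFNγ + LPS raised 1, the import receptor Pex5 (0.39), and lowered none, against 29.8% of all genes called. In M0, DGAT1i raised Pex11a (0.68), the fatty acid transporter Abcd3 (0.29) and Pex6 (0.27) and lowered Pxmp2 (-1.24). Of these 4 calls, that of Abcd3 stood under all the alternatives run and the other 3 were lost under some. Among all genes tested, 24.4% were called with DGAT1i in M0 (11.0% higher, 13.4% lower). None of the 17 passed the test of the difference between the DGAT1i responses, against 18.5% of all genes tested, and Cat did.

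Among other oxidant-producing enzymes, the endoplasmic reticulum oxidase Ero1l rose by 1.48 with IFNγ + LPS and xanthine dehydrogenase (Xdh) by 0.50, a call lost with scaling by library totals only. Monoamine oxidase A (Maoa) fell by 1.47 on the log2 scale. Acox3 rose by 0.34, a direction that turned with scaling by library totals only, and Aox1 by 2.17 at 0.321 to 4.72 CPM. In activated cells the inhibitor raised Ero1l (0.54), Acox3 (0.33) and Aox1 (1.61), and gave 0.12 for Xdh and 0.41 for Maoa, short of the threshold. In M0 it raised Ero1l (0.37) and Maoa (0.42). The call of Ero1l stood under all the alternatives run, and that of Maoa was lost under some.

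**Figure D4:**
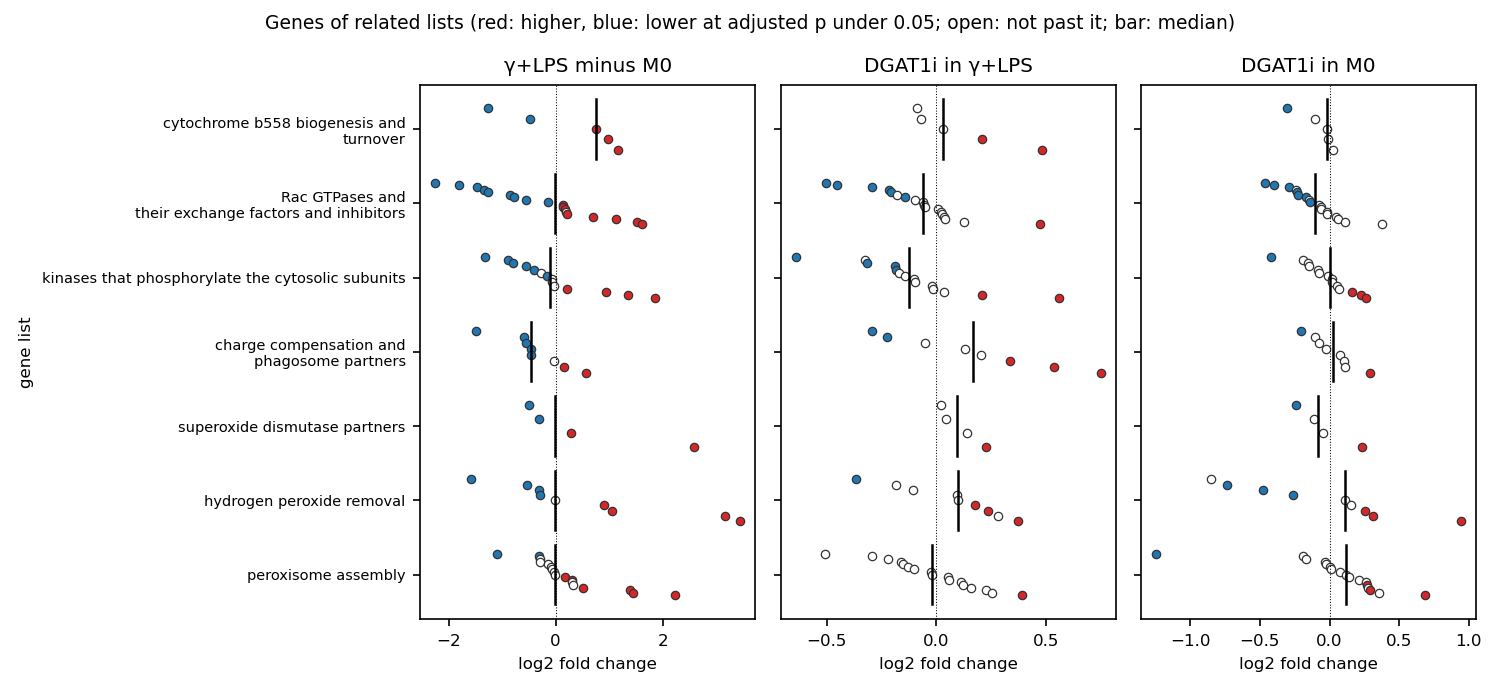
Fitted log2 fold changes (x axes, each panel with its own scale) of the tested genes of 7 related lists (y axis) with IFNγ + LPS (left), with DGAT1i in IFNγ + LPS (middle) and with DGAT1i in M0 (right). Points are genes, red if higher and blue if lower at an adjusted p under 0.05 and open if short of it, and bars are list medians. In the right panel the red point furthest right in the row for hydrogen peroxide removal is Prdx1 (0.94), and in the row for Rac GTPases all 7 called genes lie left of 0.

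Genes whose pattern over the 12 libraries was most like each of the 8 were found by Pearson's r of log2 CPM among the 9859 genes with a mean log2 CPM of at least 2, as a description. The 12 points fall into 4 groups, so that r mostly follows the group means. For Cybb these were Il12b, Sppl2a and F10 (r = 0.998 to 0.999), for Cyba Itgb7, Cstb and Prdx5, for Ncf1 Map4, Gbp2b and Unc93b1, and for Ncf4 Aoah, Sp110 and Fcgr4. For Rac2 they were Lacc1, Myo10 and Vasp, for Sod2 Birc3, Cxcl9 and H2-T24, and for Sod1 St3gal2, Ckap4 and Rps15a. Cat had the lowest top value, r = 0.964 with Lgals3, followed by Clec4d (0.960) and Gstm1 (0.955). Without the minimum level, Ly6i took the place of F10 for Cybb, Klrk1 that of Unc93b1 for Ncf1 and Gpr31b that of Vasp for Rac2, and the other genes named stayed among the 3.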

How the data were processed

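RNA sequencing libraries of 12 samples in 4 groups were analysed, with groups taken from the deposited sample labels. The authors deposited raw read counts per gene, without normalization. The submitters' processing notes name GRCm38 and DESeq2, and the aligner, the counting tool with its strand setting and the annotation release were not given in the sources used here. The paper names a TruSeq stranded mRNA kit and the labels a NEBNext kit. Of 47937 identifiers, 47224 matched GENCODE release M21 without their version, 39106 of them with it, and 25746 genes had 0 reads. The 8 genes and the lists around them were chosen with earlier results of these data known.

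These counts were tested in edgeR 4.0.16 under R 4.3.3. The filterByExpr function kept 11760 genes, libraries were scaled by TMM, and a robust glmQLFit model gave each group its own mean, over the 12 libraries at once. P-values of the quasi-likelihood test were adjusted over all genes tested by the Benjamini-Hochberg method, with a threshold of 0.05. Named genes are the 8, Rac1 and Sod3, every tested gene of a list of 6 or fewer, otherwise the 3 largest increases and decreases past the threshold, and the 3 genes most like each of the 8. Dock2, Prdx1, Gpx1 and Hvcn1 were picked for values per library, and the neutrophil genes were named, after their values were seen.

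Total reads set the precision, with 1 CPM worth 4.28 to 7.58 reads, and limits for 0 reads (3 reads) cover counting error only. Replicates differed by 1.98 to 4.24 times counting noise (chi-square per gene), so that no library had been deposited again under another name, which does not tell cultures from repeat preparations. Alternatives were DESeq2 1.42.0, RLE size factors, library totals only, no filter, a filter at a mean CPM of 1, fits of the 6 libraries compared, a replicate block, and leaving out each of the libraries. BLAST 2.17.0 was used to find copies of the 8 genes and Rac1 (95% identity, 20% of the main transcript). Promoters are from RefSeq, and protein sequences were not used here. Plots were made by Python 3.11.15 and matplotlib 3.10.9. Some genes are not reported here.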

Additional observations from a re-analysis of the deposited data

Results flagged for a closer look

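In 4 of the 8 genes the response to DGAT1i differed between activated and resting macrophages by the test of the difference itself, against 18.5% of all genes tested. On the log2 scale, the response with IFNγ + LPS minus that in M0 was -0.56 for Rac2, -0.46 for Ncf1, 0.49 for Sod1 and -0.43 for Cat. Rac2 fell in both states, Ncf1 in activated cells, Sod1 rose in activated cells, and Cat rose in both states, more in M0.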

How the results depend on the processing

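Of the results for the 8 genes under all alternatives, 769 kept their direction and their side of the threshold and 9 changed sign. With library totals only in place of TMM, the log2 fold change of Cat with IFNγ + LPS was -0.097, and DGAT1i in M0 gave -0.0025 for Cyba, -0.010 for Sod1 and -0.0082 for Sod2. With 1 library left out, values near 0 crossed it, with ranges of -0.064 to 0.013 for Cyba with DGAT1i in IFNγ + LPS (0.0022 without replicate 1 of IFNγ + LPS, 0.013 without its replicate 2 with DGAT1i), -0.021 to 0.14 for Sod2 with DGAT1i in M0 (-0.021 without replicate 1 of M0, -0.017 without replicate 1 of M0 with DGAT1i) and -0.042 to 0.042 for Ncf1 with DGAT1i in M0 (0.042 without replicate 1 of M0 with DGAT1i). None of these 9 was past the threshold under its alternative. Of the 8 genes, 1 to 2 were changed by DGAT1i in M0 with each library left out, and 1 without replicate 2 of M0 with DGAT1i. Cybb passed the difference test without replicate 3 of IFNγ + LPS with DGAT1i (adjusted p = 0.0489, edgeR). With DESeq2 on the 6 libraries compared, 1983 genes were changed by DGAT1i in IFNγ + LPS, against 3508, and 1859 in M0, against 2869, and the causes were not tested. Depth limits what is said of genes under about 1 CPM, such as Nox1, or Aox1 in resting cells.

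The replicate numbers in the labels paired the libraries at most weakly. Deviations from the group means correlated between -0.022 and 0.069 for libraries of the same number (18 pairs, 0 over 0.1), although 9 of 12 libraries correlated best with their own number. With the replicate block, 8635 genes were changed by IFNγ + LPS (8615 without it), 3568 by DGAT1i in IFNγ + LPS (3508), 2959 by DGAT1i in M0 (2869), 8310 by IFNγ + LPS with DGAT1i (8303) and 2268 in their difference (2171), and the number of the 8 genes called was 8, 5, 2, 7 and 4, as without it.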
